A study of Mus musculus with 9 samples.

Results

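The genes described here are the secreted and cell-surface metalloproteases of the Adamts and Mmp families, the Adamts-like genes (Adamtsl) and the tissue inhibitors of metalloproteases (Timp1 to Timp4) in embryonic brown adipose tissue (BAT). They were taken by symbol, as every entry of the deposited table named Adamts, Adamtsl or Mmp followed by a number, or Timp1 to Timp4. This gave 50 of 30915 genes, made up of 19 Adamts, 5 Adamtsl, 22 Mmp and 4 Timp genes. BAT, the heat-producing fat of mammals, was collected from untreated wild-type (WT) C57Bl6J embryos at embryonic days E14.5, E15.5 and E16.5. There were 3 arrays per stage, of the MoGene-2_0-st design, and each held RNA from a separate preparation of the BAT of 3 embryos. The labels do not give the embryos' sex, and whole tissue was measured, so each value pools all cells of the depot.

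Matrix metalloproteases are zinc enzymes that are made as inactive precursors and cut collagens and other proteins of the extracellular matrix once activated. Adamts proteases carry thrombospondin-type repeats and cut more selected substrates, such as procollagens and large proteoglycans, while Adamtsl proteins share the repeats but lack the protease domain. Timp proteins bind the active site of these enzymes, and Timp3 also inhibits several Adamts proteases. At the cell surface Mmp14 together with Timp2 activates the precursor of Mmp2, and in mice Mmp14 is known for its role in the remodelling of collagen as fat tissue grows.

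All values are log2 signals as the authors deposited them, so a difference of 1 is a 2-fold difference in signal. Signals of different genes are not compared, because each gene is read by its own probes. The low end of the scale was judged from the stage means of 1459 olfactory and vomeronasal receptor genes, whose 95th percentile was 4.26 at E14.5, 4.38 at E15.5 and 4.5 at E16.5. Of the 50 genes, 9 had means below this percentile at every stage, namely Mmp1a, Mmp1b, Mmp3, Mmp7, Mmp12, Mmp13, Mmp20, Mmp21 and Mmp27. These genes are called dim below. The percentile itself was higher at each later stage, so the size of a change in a dim gene is uncertain. On single arrays it was 4.34 to 4.41 at E15.5, and 4.39, 4.81 and 4.42 on E16.5 replicates 1, 2 and 3. The step to E16.5 thus came mainly from replicate 2. E16.5 replicate 2 stood apart from the other arrays, with a median of 5.05 over all genes against 4.79 to 4.85 on the other 8 arrays, and a receptor gene median of 3.66 against 3.16 to 3.29. The median change of all genes from E14.5 to E16.5 was 0.14 as deposited and 0.00678 after quantile normalization. Medians below are therefore also given relative to all genes. None of 7 adipocyte markers was dim, but neither was any of 8 skeletal muscle markers, so this does not check the tissue label. The thermogenic uncoupling protein gene Ucp1 averaged 4.46 at E14.5, 5.52 at E15.5 and 9.22 at E16.5.

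The comparison of E15.5 with E14.5 asks how the tissue changes over 1 day of gestation. On this day 23 of the 50 genes fell and 4 rose (limma, adjusted p under 0.05 over all genes), and 7 of the falls were at least 2-fold. The falls included 15 of the 19 Adamts genes, Adamtsl1, 5 Mmp genes, and Timp1 and Timp2. The 4 that rose were Adamts15, Mmp19, Mmp23 and Mmp28. Because whole tissue was measured, fewer cells of a type and less RNA per cell cannot be told apart. Over all 30915 genes, falls made up 11.2%, rises 9.07%, falls of at least 2-fold 2.33% and rises of that size 1.63%, so the share of falls among the 50 genes (46%) lay above that of all genes while the share of rises (8%) was close to it. The arrays of E15.5 lay wholly below those of E14.5 for 26 of the 50 genes and wholly above for 10, against 19.7% and 23.1% of all genes. The median change of the 50 genes was -0.17, or -0.20 relative to all genes. The 19 Adamts genes had a median of -0.81, or -0.85 relative to all genes, while the 22 Mmp genes, of which 5 fell and 3 rose, had a median of 0.04, or 0.01 relative to all genes. Without E16.5 replicate 2, 25 of the 50 fell and 7 rose, against 15% and 14.3% of all genes. Only 2 rose without any 1 of E14.5 replicate 2, E14.5 replicate 3 and the 3 E15.5 arrays.

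The comparison of E16.5 with E15.5 turns to the day after, and it shares the E15.5 arrays with the first. On this day 15 of the 50 genes fell and 3 rose, against 8.46% and 11.2% of all genes. The falls were those of 8 Adamts genes, Adamtsl1, Mmp2, Mmp14, Mmp16, Mmp23, Timp1 and Timp2, and the rises were those of Mmp8, Mmp9 and Timp4. None of the falls reached 2-fold (0.699% of all genes), and Mmp8 was the 1 gene that rose at least 2-fold (1.42% of all genes). The E16.5 arrays lay wholly below the E15.5 arrays for 19 genes and wholly above for 5, against 12.2% and 20.3% of all genes. The median change was -0.08, or -0.18 relative to all genes, and leaving out E16.5 replicate 2 gave counts of 20 and 3, against 13.6% and 11.6% of all genes.

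Over both days, E16.5 against E14.5, 26 of the 50 genes fell and 8 rose, against 17.4% and 22.0% of all genes. At least 2-fold falls numbered 17, against 5.01% of all genes, and 11 of them were Adamts genes. Mmp8 was the 1 gene that rose at least 2-fold (5.44% of all genes). The E16.5 arrays lay wholly below the E14.5 arrays for 27 genes and wholly above for 8, against 19.3% and 30.9% of all genes. The median change was -0.29, or -0.42 relative to all genes. Leaving out E16.5 replicate 2 again gave 26 and 8, against 21.7% and 20.5% of all genes in that fit. Without E14.5 replicate 1, 2 and 3, 5, 4 and 5 genes rose. Over the 3 stages 33 of the 50 genes (66%) changed by the moderated F-test, against 35.1% of all genes. In all 36 genes were called in at least 1 of the 3 stage comparisons and 14 in none.

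**Figure D1:**
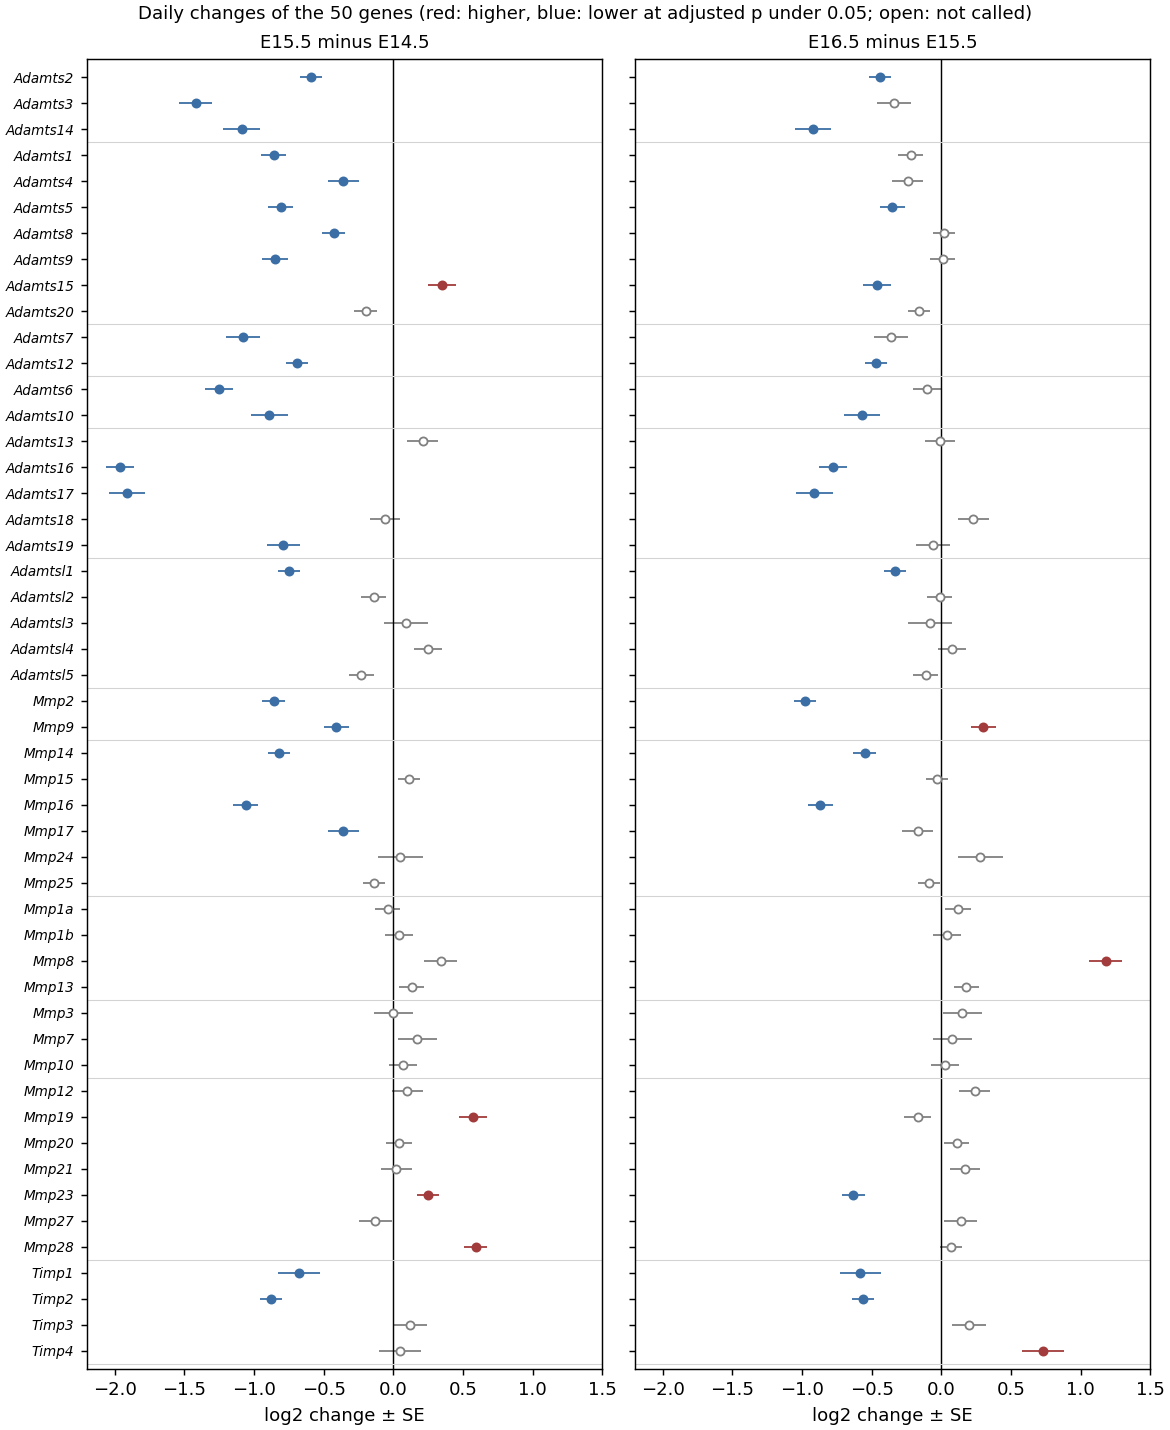
Log2 change ± SE of each of the 50 genes from the limma fit to 9 arrays, for E15.5 minus E14.5 (left) and E16.5 minus E15.5 (right), grouped by family with grey rules between families. Filled points passed an adjusted p of 0.05 (red higher, blue lower), and 23 genes are lower on the left and 15 on the right.

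The gelatinase Mmp2, its activator Mmp14 and the inhibitor Timp2 fell on both days. Mmp2, which cuts denatured collagen and basement membrane collagen, had 11.96, 12.04 and 12.00 at E14.5, 11.24, 11.08 and 11.11 at E15.5, and 10.25, 10.14 and 10.10 at E16.5. The 3 stages did not overlap on any array. The log2 change of Mmp2 was -0.86 ± 0.08 on the first day (SE, n = 3 arrays per stage, limma adjusted p = 2.31e-05) and -0.98 ± 0.08 on the second (adjusted p = 1.99e-05), which left the E16.5 signal 3.58-fold lower than at E14.5. Mmp14, the membrane-type collagenase, had 10.89, 11.01 and 10.92 at E14.5, 10.18, 10.16 and 10.03 at E15.5, and 9.54, 9.57 and 9.60 at E16.5. It fell by 0.82 and then by 0.55, and was 2.58-fold lower at E16.5 than at E14.5 (adjusted p = 1.46e-07). Timp2 had 10.32, 10.34 and 10.22 at E14.5, 9.48, 9.37 and 9.38 at E15.5, and 8.84, 8.81 and 8.90 at E16.5. Its changes were -0.88 ± 0.08 and -0.56 ± 0.08, and its E16.5 signal was 2.72-fold lower than that at E14.5 (adjusted p = 8.44e-08). For all 3 genes the calls of both daily comparisons held in every alternative fit.

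Of the other 3 inhibitors, Timp1 fell, Timp4 rose on the second day and Timp3 had the smallest change over both days. Timp1, a soluble inhibitor of most Mmp proteases, had 8.63, 8.83 and 8.62 at E14.5, 8.11, 7.85 and 8.08 at E15.5, and 7.60, 7.66 and 7.05 at E16.5. It fell on both days (log2 changes -0.68 ± 0.15 and -0.58 ± 0.15), with E16.5 replicate 3 lowest, and its stages did not overlap. Its second-day call (adjusted p = 0.0217) ended without E15.5 replicate 1 or 3 and when only the 6 E15.5 and E16.5 arrays were fitted, with changes of -0.58 to -0.53 there. Timp3, which is held in the matrix and also inhibits Adamts4 and Adamts5, had 8.45, 8.28 and 8.31 at E14.5, 8.49, 8.46 and 8.45 at E15.5, and 8.93, 8.46 and 8.60 at E16.5. E16.5 replicate 2 lay among the E15.5 values. Timp3 passed in the comparison of E16.5 with E14.5 alone (0.32 ± 0.12, adjusted p = 0.0481), and that call was lost in 11 of 16 alternative fits, namely without any 1 array other than E16.5 replicate 2, after quantile normalization or median centring, and with the 2 stages alone, with changes of 0.19 to 0.37. Timp4, an inhibitor known from heart and fat, had 6.84, 6.81 and 6.79 at E14.5, 7.0, 6.69 and 6.89 at E15.5, and 7.40, 7.97 and 7.41 at E16.5. All 3 E16.5 arrays lay above all earlier ones and E16.5 replicate 2 was highest. The Timp4 change was 0.05 ± 0.15 on the first day (adjusted p = 0.911) and 0.73 ± 0.15 on the second (adjusted p = 0.00455), and this rise held in every alternative fit.

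**Figure D2:**
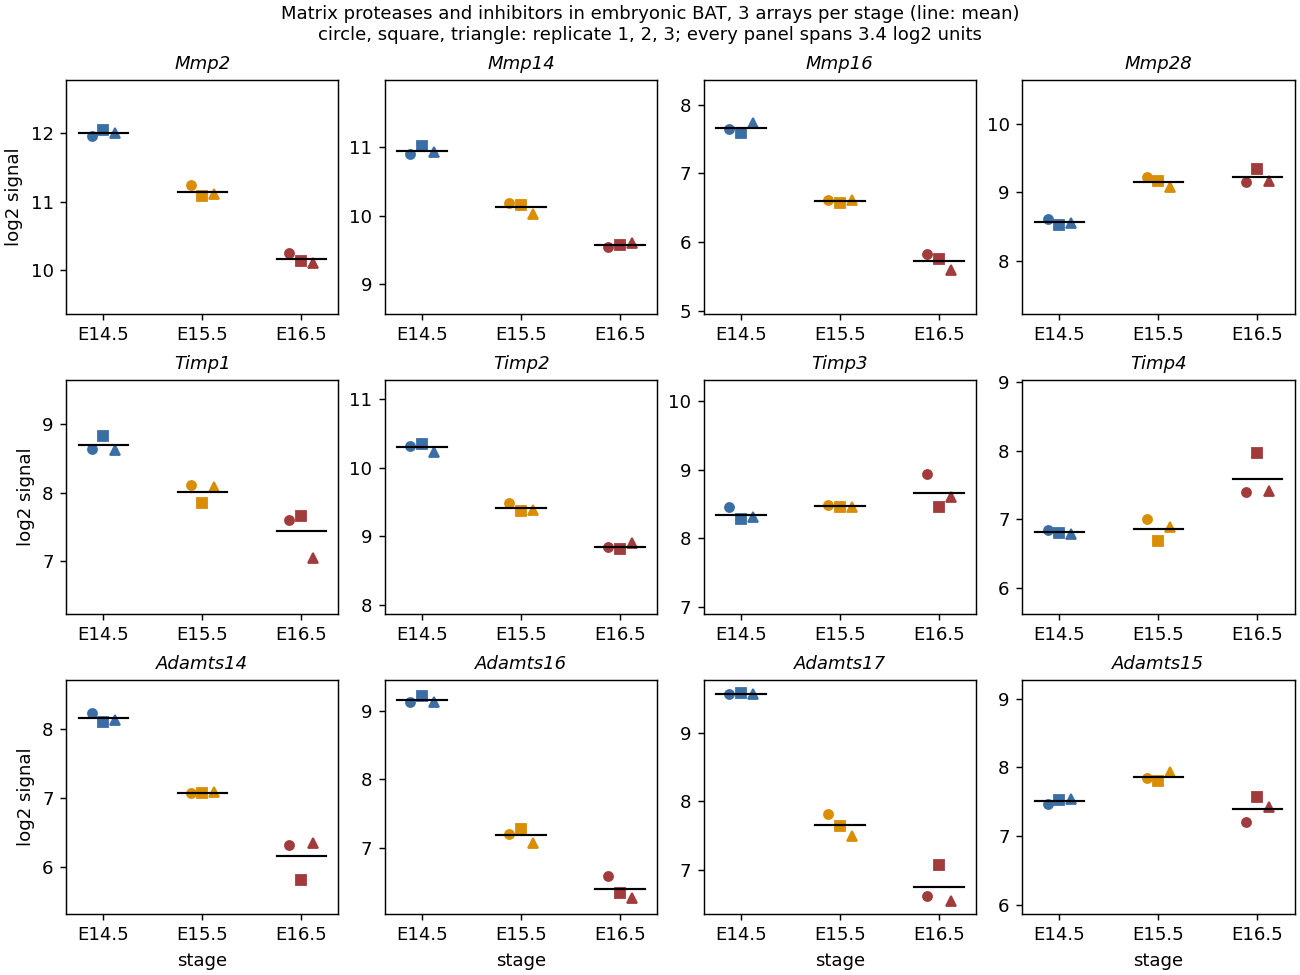
Log2 signal of 12 genes on each array by stage, with replicates 1, 2 and 3 as circle, square and triangle, the line at the stage mean of 3 arrays, and every panel spanning the same range of log2 units. Mmp2, Mmp14, Mmp16, Timp1, Timp2, Adamts14, Adamts16 and Adamts17 are lower at each later stage with no overlap, while Mmp28, Timp3, Timp4 and Adamts15 are not.

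The promoters of Mmp14 and Timp2 are shown because these genes act on the same enzyme and fell together. The windows run from 120 bases before to 10 bases after the RefSeq start site, in build GRCm38.p6, at chr14:54431478-54431607, + strand for Mmp14 and chr11:118355402-118355531, - strand for Timp2. Capitals mark matches to GGGCGG on either strand, the core of the GC box bound by Sp1-type factors, and the matches in Mmp14 lie next to each other. Such a match is present in 35.7% of all 32851 RefSeq promoters, each running from 250 bases before to 50 bases after a start site. It is not particular to genes that fell. Outside the chromosome 9 run described below, 21 of 25 members with a promoter held it, among them Mmp28, which rose.
Mmp14: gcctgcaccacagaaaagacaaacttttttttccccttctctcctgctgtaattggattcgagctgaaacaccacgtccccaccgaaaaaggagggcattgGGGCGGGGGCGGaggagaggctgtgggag
Timp2: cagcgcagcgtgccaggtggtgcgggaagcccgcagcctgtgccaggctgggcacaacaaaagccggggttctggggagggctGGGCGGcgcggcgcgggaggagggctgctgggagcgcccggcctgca
A match is a description of these letters and does not show a bound site. Neither promoter held a match to TGANTCA, the AP-1 site used below.

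The procollagen N-proteinases, which trim the amino-terminal propeptide from fibrillar procollagens, all fell. Adamts2 had 8.70, 8.74 and 8.63 at E14.5, 8.09, 8.12 and 8.09 at E15.5, and 7.63, 7.73 and 7.62 at E16.5. Adamts14 had 8.23, 8.11 and 8.14 at E14.5, 7.07, 7.07 and 7.08 at E15.5, and 6.32, 5.80 and 6.34 at E16.5. Adamts3, which also helps to process the lymphatic growth factor Vegfc, had 6.53, 6.57 and 6.42 at E14.5, 5.17, 5.05 and 5.04 at E15.5, and 4.48, 5.0 and 4.76 at E16.5. No stage overlapped the next in any of the 3 genes. At E16.5 the signal was 4.03-fold lower than at E14.5 for Adamts14 (log2 change -2.01 ± 0.13, adjusted p = 3.65e-07), 3.39-fold for Adamts3 and 2.04-fold for Adamts2. On the second day Adamts14 and Adamts2 fell by 0.92 and 0.44, while Adamts3 had -0.34 ± 0.12 and did not pass (adjusted p = 0.0762), although it passed in 5 alternative fits, among them that without E16.5 replicate 2. The E16.5 mean of Adamts3 (4.75) lay just above the low end of the scale (4.5), so its fall may not show in full. Their substrates Col1a1, Col1a2 and Col3a1 fell over both days as well (log2 changes -1.17, -1.33 and -1.10).

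Among the 7 Adamts proteases known to cut proteoglycans such as versican and aggrecan, 5 fell on the first day, 1 rose and 1 did not pass. Over all genes 11.2% fell and 9.07% rose on that day. Adamts1 had 9.27, 9.33 and 9.28 at E14.5, 8.46, 8.42 and 8.40 at E15.5, and 8.22, 8.36 and 8.05 at E16.5. Adamts5 had 8.46, 8.57 and 8.24 at E14.5, 7.67, 7.58 and 7.57 at E15.5, and 7.27, 7.25 and 7.26 at E16.5. For both genes the E14.5 arrays lay well above all later ones, and the signal at E16.5 was 2.12-fold and 2.24-fold lower than at E14.5. Adamts9, which is also needed for versican turnover in mouse embryos, fell by 0.85 ± 0.09 on the first day and had 0.01 ± 0.09 on the second, with E15.5 and E16.5 overlapping. Adamts4 and Adamts8 changed by -0.36 and -0.43 on the first day. The call of Adamts4 (adjusted p = 0.047) ended without any 1 of the 6 arrays of these stages or E16.5 replicate 3, with changes of -0.40 to -0.31. Adamts15 took another path, with 7.46, 7.53 and 7.54 at E14.5, 7.84, 7.80 and 7.93 at E15.5, and 7.21, 7.57 and 7.42 at E16.5. It rose by 0.35 ± 0.10 and then fell by 0.46 ± 0.10, so that E15.5 was its highest stage on every array. The first-day rise (adjusted p = 0.0275) ended without any 1 of the 6 arrays of these stages (changes 0.31 to 0.38), and the second-day fall held in every alternative fit. Adamts20 passed in the comparison of E16.5 with E14.5 alone (-0.36 ± 0.08). On the second day Adamts5 (-0.35) and Adamts15 fell, with the call of Adamts5 lost without any 1 of the E15.5 arrays (-0.36 to -0.32). Without E16.5 replicate 2, 5 of the 7 fell on that day, against 13.6% of all genes. With all arrays Vcan, the versican gene, changed by -0.90 on that day. Acan, the aggrecan gene, had 0.30 on that day (adjusted p = 0.0986) and rose by 0.59 over both days. Its means of 4.34, 4.64 and 4.94 at the 3 stages in order lay close above the low end of the scale. The E16.5 value was highest on replicate 2, so the size of this rise is uncertain.

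The largest falls over both days among the 50 genes were those of Adamts17 and Adamts16. Adamts17, whose loss in humans causes short stature and eye lens defects, had 9.56, 9.58 and 9.56 at E14.5, 7.82, 7.64 and 7.5 at E15.5, and 6.62, 7.07 and 6.55 at E16.5. It was 7.06-fold lower at E16.5 than at E14.5 (log2 change -2.82 ± 0.13, adjusted p = 3.36e-08). Adamts16, a protease that can cut fibronectin, had 9.12, 9.21 and 9.12 at E14.5, 7.20, 7.28 and 7.08 at E15.5, and 6.59, 6.34 and 6.28 at E16.5, a 6.71-fold lower signal at E16.5 than at E14.5 (adjusted p = 6.50e-09). In both genes most of the fall came on the first day (-1.91 and -1.96), and no stage overlapped the next. Adamts19, linked to heart valve disease in humans, fell by 0.79 on the first day and had -0.06 on the second. Adamts13, which cuts von Willebrand factor in blood, and Adamts18 were not called in any comparison.

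The pairs Adamts6 with Adamts10, which are tied to fibrillin fibres, and Adamts7 with Adamts12, which cut cartilage oligomeric matrix protein, fell too. Adamts10 had 8.50, 8.58 and 8.48 at E14.5, 7.59, 7.69 and 7.61 at E15.5, and 7.17, 7.30 and 6.72 at E16.5. Adamts6 had 6.02, 6.28 and 6.43 at E14.5, 4.96, 5.04 and 4.98 at E15.5, and 4.92, 4.91 and 4.84 at E16.5. Thus Adamts10 was lower at each stage, while the E15.5 and E16.5 values of Adamts6 lay close together just above the low end of the scale. Adamts7 had 8.68, 8.81 and 8.67 at E14.5, 7.71, 7.55 and 7.66 at E15.5, and 7.13, 7.56 and 7.15 at E16.5, and its E16.5 replicate 2 overlapped E15.5. Adamts12 had 10.14, 10.25 and 10.16 at E14.5, 9.52, 9.46 and 9.51 at E15.5, and 8.96, 8.96 and 9.14 at E16.5. Over both days the changes were -1.46 for Adamts10, -1.35 for Adamts6, -1.44 for Adamts7 and -1.16 for Adamts12, all past the threshold in every alternative fit. On the second day Adamts10 (-0.57) and Adamts12 (-0.47) fell, and Adamts7 had -0.36 ± 0.12 (adjusted p = 0.0588), which passed without E16.5 replicate 2. The fibrillin genes Fbn1 and Fbn2 changed by -1.72 and -2.74 over both days. Comp, the gene of cartilage oligomeric matrix protein, was dim and had 0.30 over both days (adjusted p = 0.0807).

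Of the 5 Adamts-like genes, Adamtsl1 fell on both days. It had 6.22, 6.20 and 6.16 at E14.5, 5.46, 5.5 and 5.37 at E15.5, and 5.07, 5.24 and 5.02 at E16.5, without overlap. Its second-day call (-0.33 ± 0.08) ended without E15.5 replicate 1 or 2 and with the 2 stages alone (-0.33 to -0.30). Adamtsl4, which is linked to displaced lenses in humans, rose over both days (0.33 ± 0.10), and Adamtsl5 fell (-0.34 ± 0.09). The Adamtsl4 call was lost without E14.5 replicate 2 or 3 and with the 2 stages alone (0.28 to 0.33), and the Adamtsl5 call without E14.5 replicate 2 and after quantile normalization (-0.30). Adamtsl2 and Adamtsl3 were not called in any comparison.

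Of the 5 membrane-type proteases other than Mmp14, Mmp16, Mmp17 and Mmp25 fell over both days, Mmp15 and Mmp24 were not called, and none rose. Mmp16, which cuts collagen at the cell surface, had 7.64, 7.59 and 7.73 at E14.5, 6.61, 6.57 and 6.61 at E15.5, and 5.83, 5.75 and 5.59 at E16.5. It fell on both days (-1.06 ± 0.09 and -0.87 ± 0.09) and was 3.81-fold lower at E16.5 than at E14.5 (adjusted p = 2.26e-08), with no overlap of stages. Mmp15 had 8.20 at E14.5, 8.31 at E15.5 and 8.27 at E16.5 on average and was not called in any comparison. Mmp17 and Mmp25, which are tethered by lipid anchors, had smaller changes. Mmp17 fell over both days (-0.53 ± 0.11), and its first-day call (-0.36) ended without any 1 of the 6 arrays of those stages or E16.5 replicate 3 and with an intensity trend in the variance (-0.42 to -0.32). Mmp25 had -0.23 ± 0.08 over both days (adjusted p = 0.0459), a call lost in 10 of 16 alternative fits, including those without E14.5 replicate 1 or 2, E16.5 replicate 1 or any 1 E15.5 array (-0.23 to -0.18). Mmp24 had a change of 0.33 over both days.

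Mmp28 and Mmp19 rose on the first day, and Mmp23 rose and then fell. Mmp28, known as epilysin, had 8.61, 8.53 and 8.56 at E14.5, 9.22, 9.16 and 9.08 at E15.5, and 9.15, 9.34 and 9.17 at E16.5. Both later stages lay above E14.5 and overlapped each other, with a first-day change of 0.59 ± 0.08 (adjusted p = 3.77e-04). Mmp19 had 7.97, 7.69 and 7.88 at E14.5, 8.49, 8.41 and 8.36 at E15.5, and 8.16, 8.40 and 8.19 at E16.5, and rose by 0.57 ± 0.10 on the first day. Mmp23, a membrane protease without the haemopexin domain found in most of the family, had 8.34, 8.34 and 8.32 at E14.5, 8.59, 8.62 and 8.55 at E15.5, and 8.02, 8.0 and 7.85 at E16.5. Its 3 stages did not overlap, and E15.5 was highest. The fall of 0.63 ± 0.08 on the second day held in every alternative fit, while the first-day rise of 0.25 ± 0.08 ended without any 1 of the 6 arrays of those stages and with the replicate number as a block (0.23 to 0.27).

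The remaining Mmp genes include a run of 10 neighbours on mouse chromosome 9. In the order of assembly GRCm38.p6 these are Mmp13, Mmp12, Mmp1b, Mmp3, Mmp1a, Mmp10, Mmp8, Mmp27, Mmp20 and Mmp7, with no other protein-coding gene between them. They comprise the collagenases, the stromelysins Mmp3 and Mmp10, matrilysin (Mmp7), macrophage elastase (Mmp12) and enamelysin (Mmp20), enzymes known mainly from inflamed, remodelling or specialised tissues. Of the 10 genes 8 were dim at every stage, the exceptions being Mmp8 and Mmp10, whose E14.5 means of 4.34 and 4.32 lay close to the low end. Mmp8, the collagenase of neutrophils, rose, and no other gene of the run was called on a single day.

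Mmp8 had 4.21, 4.40 and 4.41 at E14.5, 4.70, 4.64 and 4.70 at E15.5, and 5.86, 6.10 and 5.63 at E16.5. Every stage lay above the one before on all arrays. The change was 0.34 ± 0.12 on the first day (adjusted p = 0.0688), which passed in 7 alternative fits, among them those without E16.5 replicate 2 or 3, and 1.18 ± 0.12 on the second (adjusted p = 5.07e-05). Over both days the Mmp8 signal was 2.87-fold higher at E16.5 than at E14.5, and the second-day and both-day calls held in every alternative fit. Mmp12 and Mmp13 passed over both days (0.34 and 0.32), but both were dim, and Mmp12 had 3.44 on 4 of the 9 arrays. Their calls were lost after quantile normalization (0.15 and 0.14), with the 2 stages alone, and without E14.5 replicate 1 or 2, and that of Mmp12 also with array weights and without E14.5 replicate 3 or any 1 E15.5 array.

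RefSeq promoters were found for 35 of the 50 genes, among them all 10 of this run. A match to TGANTCA on either strand, the site of the AP-1 factors Fos and Jun, was found in 8 of the 10 genes and in 0 of the 25 other genes, against 8.97% of all 27025 genes with a promoter. The exceptions were Mmp8 and Mmp27. TATAAA on either strand was found in 9 of the 10 and in 3 of the 25 (15.7% of all genes), and GGGCGG in 0 of the 10 and in 21 of the 25 (38.2% of all genes). Mmp7 and Mmp12 have 2 promoters each, of which 1 holds the TGANTCA match. The median share of G and C was 41.7% in the promoters of the run and 65.3% in those of the other genes. The windows below run from 120 bases before to 10 bases after the start site on chromosome 9 in GRCm38.p6, all on the + strand. They are shown so that Mmp8 can be set beside 4 neighbours that were not called on either day. Of these neighbours Mmp13, Mmp3 and Mmp1a were dim, and Mmp13 passed over both days (0.32). They are therefore not shown as genes known not to rise. Mmp13 lies at chr9:7272394-7272523, Mmp3 at chr9:7445702-7445831, Mmp10 at chr9:7502222-7502351, Mmp1a at chr9:7464021-7464150 and Mmp8 at chr9:7558309-7558438. Capitals mark TGANTCA and TATAAA matches, and in Mmp8 the TATAAA match is read on the opposite strand.
Mmp13: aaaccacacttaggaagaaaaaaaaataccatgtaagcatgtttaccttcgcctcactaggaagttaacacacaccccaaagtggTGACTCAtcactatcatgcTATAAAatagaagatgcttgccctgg
Mmp3: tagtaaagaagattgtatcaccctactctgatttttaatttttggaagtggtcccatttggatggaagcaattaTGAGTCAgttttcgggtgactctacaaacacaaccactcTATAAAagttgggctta
Mmp10: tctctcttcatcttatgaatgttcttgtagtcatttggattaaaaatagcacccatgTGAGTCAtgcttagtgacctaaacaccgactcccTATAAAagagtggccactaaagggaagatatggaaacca
Mmp1a: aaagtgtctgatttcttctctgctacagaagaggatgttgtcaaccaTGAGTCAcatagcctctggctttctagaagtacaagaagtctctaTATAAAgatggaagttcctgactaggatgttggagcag
Mmp8: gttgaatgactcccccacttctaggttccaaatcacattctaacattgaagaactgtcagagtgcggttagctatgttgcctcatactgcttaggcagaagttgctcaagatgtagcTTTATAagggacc
The TGANTCA match begins 35 bases before the start site in Mmp13, 46 in Mmp3, 63 in Mmp10 and 73 in Mmp1a. That Mmp8 has no match says only that these letters are not in its window.

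Some markers of neutrophils, the white blood cells that store Mmp8 and Mmp9 in granules, rose on the same day as Mmp8. Of 7 such markers 4 rose and 0 fell on the second day, against 11.2% and 8.46% of all genes. On the first day 0 of the 7 were called, while 9.07% of all genes rose and 11.2% fell. S100a8 rose by 1.09 ± 0.15, Ngp by 0.85 ± 0.16, Ltf (lactoferrin) by 0.85 ± 0.11 and S100a9 by 0.70 ± 0.11 at E16.5 against E15.5. Camp, Elane and Mpo had 0.46, 0.12 and -0.03 and were dim at every stage, as was S100a9. The means of S100a8 at E14.5 and E15.5 (3.55 and 3.77) also lay below the low-end percentile, so the size of its rise is uncertain. The summed log2 signal of the 7 markers was 27.1 to 28.7 at E14.5, 27.8 to 28.9 at E15.5 and 32.0 to 33.5 at E16.5. Their part in the rise of Mmp8 was not tested. Mmp9, the gelatinase known from neutrophils and from other cells, had 5.56, 5.76 and 5.45 at E14.5, 5.15, 5.24 and 5.15 at E15.5, and 5.55, 5.44 and 5.44 at E16.5. It fell by 0.41 ± 0.09 on the first day and rose by 0.30 ± 0.09 on the second (adjusted p = 0.047), so that E14.5 and E16.5 overlapped. The second-day call was lost in 12 of 16 alternative fits, including quantile normalization and every fit without 1 array except those without E14.5 replicate 2 or E16.5 replicate 2, with changes of 0.22 to 0.32.

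**Figure D3:**
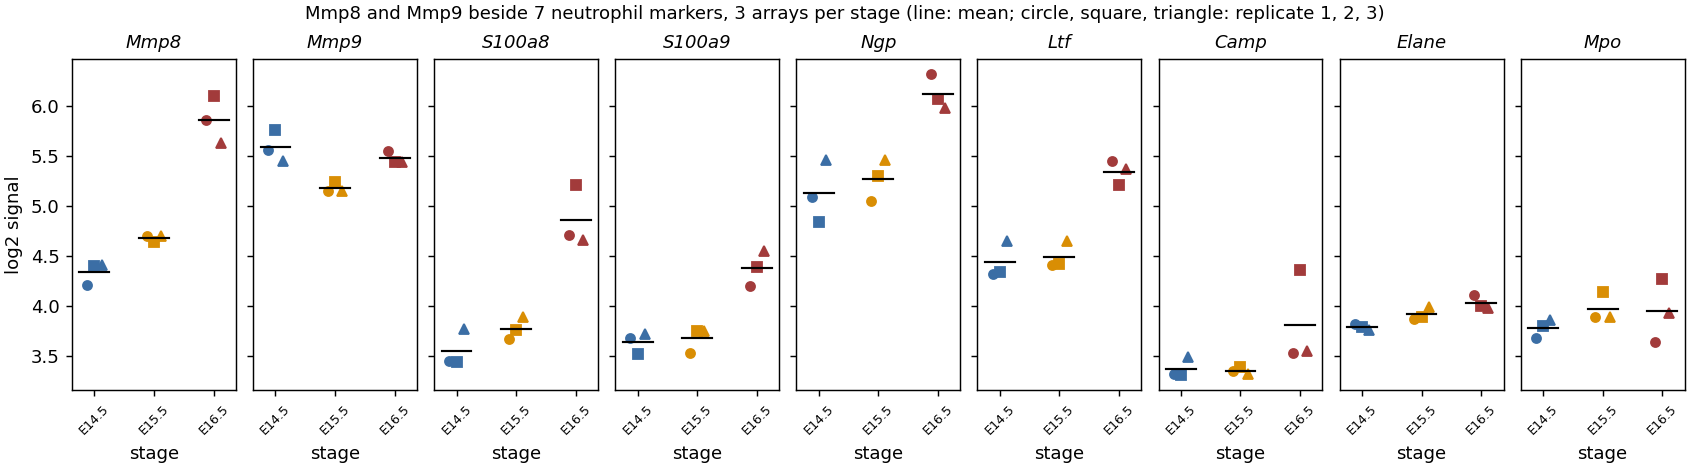
Log2 signal of Mmp8, Mmp9 and 7 neutrophil markers on each array by stage, with replicates 1, 2 and 3 as circle, square and triangle and the line at the stage mean of 3 arrays. Mmp8, S100a8, S100a9, Ngp and Ltf are highest at E16.5 on all 3 arrays, while Mmp9 at E16.5 overlaps E14.5.

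The change, taken with its sign, differed between the days for 11 of the 50 genes, as tested by subtracting the first-day change from the second-day change. Over all genes 2.79% passed with a positive and 2.41% with a negative difference. Such a difference need not be one of size, since Mmp9, Mmp23 and Adamts15 were called in opposite directions on the 2 days. The first-day fall was the larger for Adamts16 (difference 1.18 ± 0.17, adjusted p = 0.00348), Adamts6 (1.15), Adamts3 (1.08), Adamts17 (1.0), Adamts9 (0.87) and Adamts1 (0.65). The second-day change was the higher for Mmp8 (0.84) and Mmp9 (0.70), and the lower for Mmp23 (-0.88), Adamts15 (-0.81) and Mmp19 (-0.74). These tests were the least steady of those run. The number of genes called was 4 to 15 over the fits without 1 array, being 4 without any 1 E15.5 array, 6, 5 and 6 without E14.5 replicate 1, 2 and 3, and 7 without E16.5 replicate 1. The calls of Adamts16, Adamts6 and Mmp23 held in every alternative fit. For Mmp2, Mmp14, Mmp16, Adamts14, Timp1 and Timp2 the difference did not pass, and the difference for Mmp2 was -0.12 ± 0.14.

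**Figure D4:**
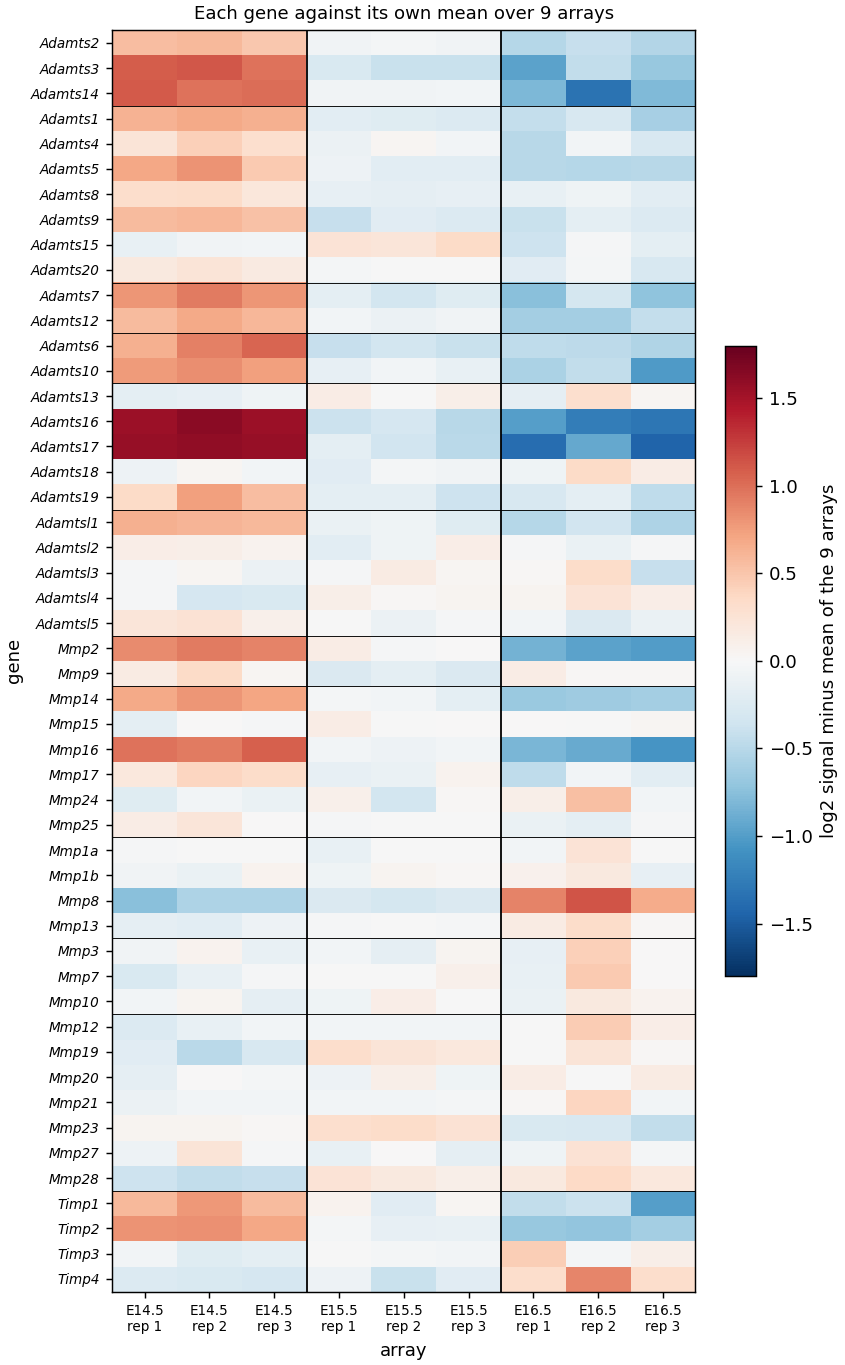
Log2 signal of each of the 50 genes on each of the 9 arrays minus the gene's own mean over the arrays, with families separated by horizontal lines and stages by vertical lines. Most Adamts genes and Mmp2, Mmp14, Mmp16, Timp1 and Timp2 are above their mean at E14.5 and below it at E16.5, Mmp8 and Timp4 do the opposite, and E16.5 replicate 2 is raised in dim genes such as Mmp3 and Mmp12.

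Other genes of the same system were set beside the 50. Of 26 activators, inhibitors outside the Timp family and clearance receptors, 13 fell and 2 rose over both days. Over all genes 17.4% fell and 22.0% rose. The median change of the 26 was -0.30, against 0.14 for all genes. Only 1 of the 26 rose without E14.5 replicate 2 or 3. Reck, a membrane-anchored inhibitor of several Mmp proteases, fell by 1.54, and Lrp1, the endocytic receptor that clears Mmp, Adamts and Timp proteins, by 1.85. The tissue plasminogen activator Plat and the serine protease inhibitor Serpine2 changed by -1.63 and -2.0, and the hyaluronan receptor Cd44, which can dock Mmp proteases, by -1.50. The procollagen C-proteinase enhancer Pcolce2 changed by -1.46, whereas Furin, the convertase that activates membrane-type Mmp and many Adamts precursors, had -0.16 on the first day and 0.33 on the second (adjusted p = 0.0112, lost without E15.5 replicate 3 at 0.33).

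Of 26 other matrix-degrading enzymes, 16 fell and 3 rose over both days, against 17.4% and 22.0% of all genes. Their median change was -0.43. Adam19 (-1.55), the procollagen C-proteinase Bmp1 (-1.59), the fibroblast protease Fap (-1.67), Dpp4 (-1.55) and cathepsin K (Ctsk, -1.06) were among those that fell. The lysosomal cathepsin D (Ctsd) rose by 1.23, and on the first day the secreted serine protease Htra1 rose by 1.21, so genes for matrix-degrading enzymes did not all move one way. Of 28 matrix substrates 22 fell and 2 rose over both days, against the same shares of all genes, with a median of -0.84. The 6 with the smallest p-values over both days were Thbs1 (-2.17), Fbn2 (-2.74), Vcan (-1.91), Col5a2 (-1.72), Fn1 (-1.62) and Tnc (-2.08).

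Markers of several cell types moved over the same days, and their part in the results above was not tested. Over all genes 17.4% fell and 22.0% rose over both days. The endothelial counts and the cartilage and bone rises given below lay near these shares. Over both days 7 of 7 adipocyte markers rose (median 4.76), with a summed log2 signal of 48.9 to 50.2 at E14.5, 68.0 to 68.4 at E15.5 and 77.1 to 77.9 at E16.5. Of 8 skeletal muscle markers 7 fell and 0 rose (median -1.86), the sum being 75.8 to 76.1, 65.1 to 67.2 and 60.2 to 63.6 at the 3 stages in order. Of 8 macrophage markers 7 fell and 0 rose (median -0.70), with sums of 64.6 to 65.8, 59.8 to 61.2 and 58.8 to 60.9. Of 7 mesenchymal progenitor markers 5 fell and 2 rose (median -0.43), with sums of 66.0 to 66.3, 64.9 to 66.3 and 63.1 to 64.5. Pdgfra, the growth factor receptor of fibroblasts and adipose precursors, changed by -1.96, while Ly6a and Pi16 rose by 1.44 and 1.26. Of 7 endothelial markers 2 fell and 1 rose (0 without E14.5 replicate 3), with sums of 67.7 to 68.0, 65.9 to 66.1 and 66.2 to 67.4. Of 8 cartilage and bone markers 3 fell and 2 rose, with sums of 36.3 to 36.7, 35.3 to 36.3 and 35.3 to 37.1. Of these 8, the cartilage genes Col2a1, Col9a1 and Col11a1 fell (-0.74, -0.36 and -0.83), Acan and Matn1 rose (0.59 and 0.43), and Matn1 and the bone genes Sp7, Bglap and Ibsp were dim at every stage. Acan was not dim but lay close to the low end. Only 1 of the cartilage and bone markers rose without any 1 E14.5 array, E15.5 replicate 1 or 3, or E16.5 replicate 3.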

How the data were processed

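The 9 arrays were read as the log2 values that the authors deposited, for which Partek 7.0 and RMA are named per the submitters' processing notes. The RMA method corrects background, aligns the arrays' distributions and summarises probes. How probes were reduced to 1 value per symbol, and with which annotation and build, is not given in the sources used here. No detection calls were used, and the number of arrays limits the precision.

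All 30915 genes were fitted with limma 3.58.1 in R 4.3.3, with stage as the only term over 9 arrays (6 residual and 4.59 prior degrees of freedom), after a check on simulated data. Two-sided p-values were corrected by the Benjamini-Hochberg method over all genes in each comparison, with a threshold of 0.05. Errors are SE of the log2 change.

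Alternatives were quantile normalization, median centring, a filter on dim genes, an intensity trend, array weights, the 2 stages alone, the replicate block and leaving out each array. The genes and lists were chosen with earlier results of these data known, so they are not independent evidence. Named genes were all 50 members, with each array's value for called changes of at least 2-fold, the Timp genes, Mmp2 and Mmp14, plus up to 6 called genes per list and comparison by smallest p and Reck, Furin and Lrp1. Values of every array for Adamts15, Mmp9, Mmp19, Mmp23 and Mmp28 were added after their values were seen. So were the collagen and fibrillin genes, Acan and Comp beside the Adamts genes, and the marker genes named. Promoters came from the RefSeq table of GRCm38.p6, which served otherwise for gene names and order only. All 50 symbols were current in it.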

Additional observations from a re-analysis of the deposited data

How the results depend on the processing

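Of 79 calls of the 50 genes over the 3 stage comparisons, 65 held in every alternative fit, 14 were lost in at least 1 and 0 reversed, and all 14 were lost in some fit without 1 array, which has fewer arrays. The count of genes that rose on the first day was 4, and 7 with array weights. The count that rose over both days was 8, against 5 after quantile normalization and 4 with the 2 stages alone. The count of genes whose change differed between the days was 11, and 17 with array weights. The cause was not tested, except that the 2 stages alone hold fewer arrays. Without 1 array these counts were 2 to 7, 4 to 9 and 4 to 15. The other counts over all 50 genes moved by no more than 1.5 times in the alternatives run. Some counts of smaller families and lists moved more. Of the 7 proteoglycan-cleaving Adamts genes, 2 fell on the second day with all arrays and 5 without E16.5 replicate 2. No replicate numbers are known to pair the samples, and deviations of arrays with the same number had correlations of -0.13 to 0.10. With the replicate number as a block, 3 genes rose and 23 fell on the first day, 2 rose and 15 fell on the second, and 8 differed between the days.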
